A study of Homo sapiens with 60 samples.

Results

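Krüppel-like factors are zinc finger transcription factors, and 10 of them were followed here in A549, a line from a human adenocarcinoma of the lung, treated with plant extracts: KLF2, KLF3, KLF4, KLF5, KLF6, KLF9, KLF10, KLF11, KLF13 and KLF16. They are 10 of the 60675 genes in the table of counts, found by matching its Ensembl identifiers to these symbols, and all 10 passed the filter on low counts that left 17256 genes for testing. The members were chosen by family name, with CPM values and fold changes of these same libraries already known. KLF2 was among the genes seen to be higher in treated cells at that time, so its difference from vehicle is given as a description, and no p is read for it.

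All cells were A549, exposed for 24 h. The vehicle group received DMSO, at 0.1% in the sample labels and at 2% in the text of the series. The treated groups received hot-water extracts at 500, 100 or 20 µg/mL, as labelled, of the single herbs Menthae Herba and Saposhnikoviae Radix or of a decoction, which was Soyo-san, Saengmaek-san, Okbyeongpung-san, Guibi-tang or Soshiho-tang. The series text adds that more inhibitory extracts were diluted from a lower top concentration, and the labels used here print the same 3 doses for every extract. Vehicle and 6 extracts had 3 libraries per group, 57 in all, and Soshiho-tang had 1 library per dose, so its values carry no test. The labels do not say whether the 3 libraries of a group were separate cultures, and p-values therefore reflect the spread among the libraries alone, which may be technical.

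KLF proteins bind GC-rich and CACCC sequences through zinc fingers at their carboxyl end, and their amino ends recruit coactivators or corepressors. KLF2, KLF4, KLF5 and KLF6 are mainly activators that respond quickly to growth factors, shear stress or injury. KLF9, KLF10, KLF11, KLF13 and KLF16 carry a Sin3A-binding repressor motif, KLF10 and KLF11 being known as transforming growth factor beta-inducible genes, and KLF3 represses through the corepressor CtBP. In lung epithelium, KLF5 is known for its part in alveolar maturation and KLF2 is better known from endothelium, where the kinases MEKK3 and ERK5 induce it through MEF2 factors.

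The sequences upstream of KLF2, KLF4, KLF6 and KLF11 are shown. Among members with a promoter window, these genes carried most of the differences that follow, KLF4 in the opposite direction to the others. KLF10 passed in more comparisons than KLF4 or KLF11 but had no window. They are RefSeq promoter windows on GRCh38.p14 that end just before a start site, limited here to bases outside every GENCODE 29 exon of the gene. The KLF2 and KLF6 stretches lie upstream of the annotated gene, and those of KLF4 and KLF11 lie inside it, between exons. Each is written 5′ to 3′ on the gene's strand with matches to the motifs below in capitals.
KLF2, chr19:16324576-16324816, plus strand: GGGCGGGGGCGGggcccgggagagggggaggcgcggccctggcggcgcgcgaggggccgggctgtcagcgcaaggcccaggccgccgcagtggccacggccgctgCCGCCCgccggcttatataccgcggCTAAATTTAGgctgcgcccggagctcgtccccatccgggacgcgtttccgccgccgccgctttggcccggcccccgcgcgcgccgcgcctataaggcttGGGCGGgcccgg
KLF4, chr9:107489770-107490019, minus strand: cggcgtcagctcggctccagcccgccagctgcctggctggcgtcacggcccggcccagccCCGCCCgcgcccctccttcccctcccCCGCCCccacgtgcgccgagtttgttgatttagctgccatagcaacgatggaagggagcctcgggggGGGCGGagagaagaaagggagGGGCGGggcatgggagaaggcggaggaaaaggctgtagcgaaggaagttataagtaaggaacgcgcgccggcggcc
KLF6, chr10:3785282-3785459, minus strand: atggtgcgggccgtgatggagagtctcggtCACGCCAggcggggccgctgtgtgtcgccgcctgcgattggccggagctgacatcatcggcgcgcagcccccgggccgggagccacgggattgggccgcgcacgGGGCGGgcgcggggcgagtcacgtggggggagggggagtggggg
KLF11, chr2:10043971-10044174, plus strand: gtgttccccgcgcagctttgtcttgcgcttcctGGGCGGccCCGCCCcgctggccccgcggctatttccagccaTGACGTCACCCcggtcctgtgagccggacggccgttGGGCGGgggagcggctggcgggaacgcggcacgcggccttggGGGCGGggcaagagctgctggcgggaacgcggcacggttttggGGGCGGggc

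The motifs searched on both strands were the GC box GGGCGG, the CACCC box CACCC, the cyclic AMP response element TGACGTCA, the aryl hydrocarbon receptor core TNGCGTG, the serum response CArG box and the MEF2 element. The printed KLF2 stretch held 4 GC boxes, the first 2 touching each other, and 1 MEF2 element. The KLF4 stretch held 4 GC boxes, the KLF6 stretch held 1 GC box and 1 aryl hydrocarbon receptor core, and the KLF11 stretch held 5 GC boxes and 1 cyclic AMP response element, which overlaps a CACCC box. Windows of 250 bases were present for 8 of the 10 members (KLF3 and KLF10 had no entry), with 2 start sites each for KLF5 and KLF11. At least 1 GC box lay in 8 of the 10 windows of these members and in 42.6% of 35116 windows of all genes. Counted by gene it lay in 7 of 8, all but KLF9. KLF5 counts only through its second window, of which 213 of 250 bases lie in exons. The MEF2 element was in the window of 1 member, KLF2, and in 2.8% of all windows, and the cyclic AMP response element in that of 1 member, KLF11, and in 1.65%. The other shares of all windows were 54.7% for the CACCC box, found in 4 of the 10 member windows, and 4.52% for the aryl hydrocarbon receptor core, found in 2. For the CArG box the share was 1.16%, and it was found in 0 member windows.

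Library totals ran from 18330592 to 35308791 counts. Levels are CPM, a count divided by the library's total and scaled to 1e+06, and fold changes are log2 values of edgeR's fit of the 57 replicated libraries. Taken in the order of their library names, the libraries show a step after the 31st: the share of counts from mitochondrial genes was 11.9% ± 0.747 (SD, n = 31) before it and 16.1% ± 2.26 (SD, n = 29) after it. The vehicle and both herbs lie before the step, all of Okbyeongpung-san, Soshiho-tang and Soyo-san after it, and Saengmaek-san and Guibi-tang on both sides. For extracts that lie wholly after it, the step and the treatment cannot be told apart by comparison with vehicle. By their names the vehicle libraries also form a set that no extract shares, and the labels do not say what the sets are. A difference between sets therefore cannot be told apart from treatment in any comparison with vehicle, also among libraries before the step. Values from a fit with a term for library order are given beside some of the members' results and, for the genes of related lists, at the end. Only Saengmaek-san and Guibi-tang have groups with libraries on both sides, so that term and the fitted differences across the step rest on them. Its values for other extracts assume the same step there, which was not tested. The 5 epithelial markers summed to 5021 to 6450 CPM in every library. The 5 endothelial markers summed to 0.0408 to 0.48 CPM, the 5 leukocyte markers to 1.59 to 3.48 CPM with CD3E at 0, and the 5 fibroblast markers to 30.9 to 47.1 CPM.

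Levels between genes were compared per length, as TPM over the merged exons of GENCODE 29. In vehicle cells the order was KLF5 with 68.7 ± 2.11 TPM (SD, n = 3), KLF10 with 65.7 ± 1.81, KLF13 with 34.5 ± 1.02, KLF16 with 30.1 ± 0.35, KLF6 with 26.5 ± 0.356, KLF3 with 20.8 ± 0.411, KLF2 with 8.39 ± 0.812, KLF4 with 6.79 ± 0.0753, KLF9 with 3.82 ± 0.399 and KLF11 with 3.50 ± 0.325. The vehicle libraries of KLF5 and KLF10 overlapped, as did those of KLF9 and KLF11, and every other pair of neighbours in this order was separate. The activator KLF5 and the repressor KLF10 were thus the most abundant members per length, and KLF2, KLF4, KLF9 and KLF11 were measured from 104 to 353 counts per library, which limits their precision.

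KLF2 (ENSG00000127528, chromosome 19, 16324817 to 16327874, plus strand) was higher than vehicle with every extract at every dose. Its vehicle libraries had 5.06, 5.92 and 6.19 CPM. With 500 µg/mL the 3 libraries had 8.76, 9.29 and 9.11 CPM for Menthae Herba and 8.84, 9.60 and 9.60 for Saposhnikoviae Radix. Each of these libraries exceeded the highest vehicle library.
At the same dose the decoctions gave 11.2, 8.89 and 10.8 CPM for Saengmaek-san, 10.0, 9.20 and 12.4 for Guibi-tang, 11.2, 11.8 and 12.2 for Soyo-san and 10.8, 9.76 and 9.57 for Okbyeongpung-san. The log2 fold change against vehicle at 500 µg/mL was 0.62 ± 0.131 (SE) for Menthae Herba, 0.66 ± 0.128 for Saposhnikoviae Radix, 0.84 ± 0.127 for Saengmaek-san, 0.85 ± 0.129 for Guibi-tang, 1.07 ± 0.125 for Soyo-san and 0.82 ± 0.128 for Okbyeongpung-san. It was 0.42 to 0.94 at 100 µg/mL and 0.57 to 1.03 at 20 µg/mL. All 57 extract libraries, Soshiho-tang included, lay above all 3 vehicle libraries (6.74 to 15.3 CPM, median 9.60). Of the 17256 genes tested, 22 had all extract libraries above all vehicle libraries, which is 0.127%, and 32 had them all below, which is 0.185%. Where libraries or groups of other members are said below not to overlap those compared, this is a description. The share of all genes that do the same is not given there, so nothing is read from it.

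**Figure D1:**
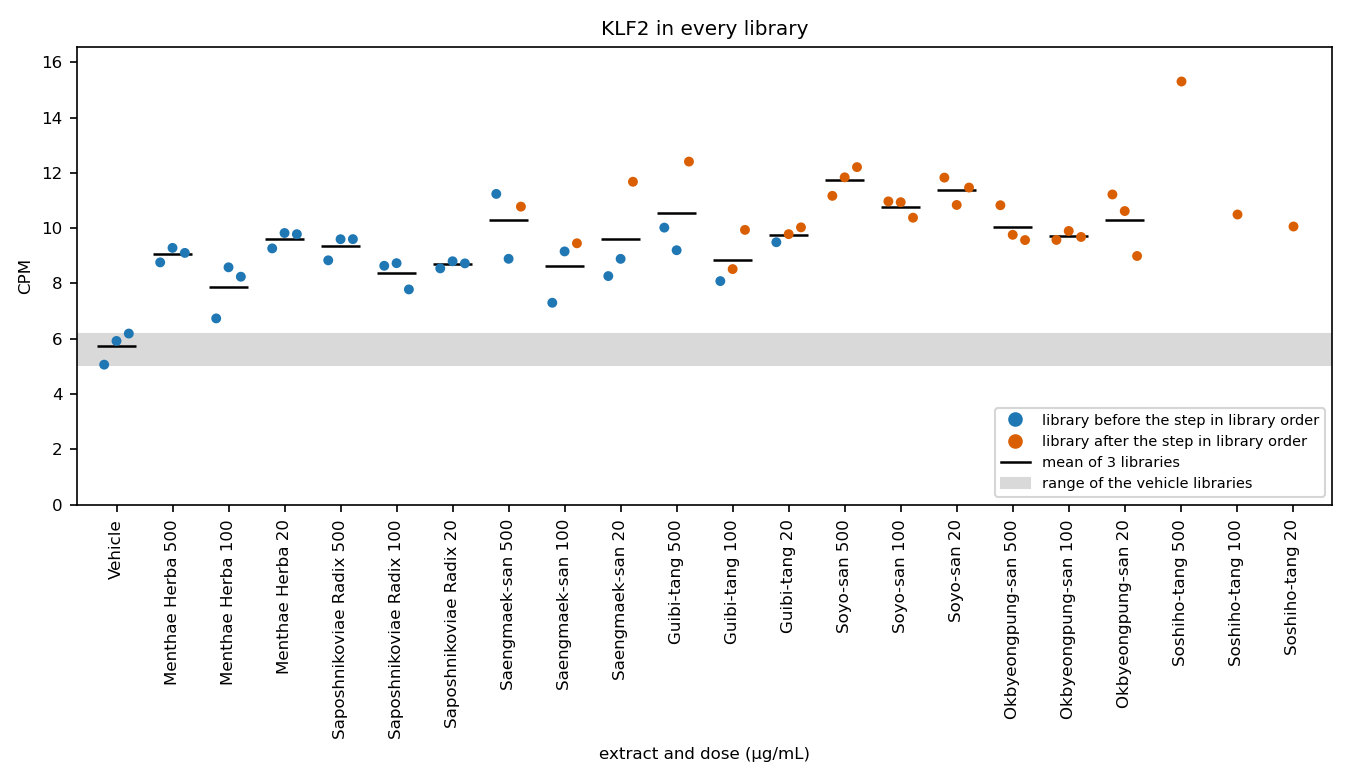
KLF2 level in CPM (vertical axis) in each of the 60 libraries by extract and dose in µg/mL (horizontal axis), with points coloured by their side of the step in library order, black lines at the mean of 3 libraries and a grey band over the range of the vehicle libraries. Every extract library lies above the band, and the Soshiho-tang library at 500 µg/mL is the highest at 15.3 CPM.

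KLF2 did not differ detectably between the highest and lowest dose of an extract. Between 500 and 20 µg/mL of the same extract the log2 fold change ran from -0.10 for Menthae Herba (95% interval -0.35 to 0.14) to 0.09 for Saengmaek-san (95% interval -0.15 to 0.33), and 0 of 6 comparisons passed at an adjusted p under 0.05 in edgeR's quasi-likelihood test, with the lowest adjusted p at 0.884. None passed unadjusted either (0 of 6 at p under 0.05) or with DESeq2 (0 of 6). For Menthae Herba, the 20 µg/mL libraries had 9.27, 9.82 and 9.78 CPM and overlapped its libraries at 500 µg/mL by a narrow margin. For Soyo-san they had 11.8, 10.8 and 11.5 CPM, which also overlapped its libraries at 500 µg/mL.

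KLF2 also stood higher after the step in library order, by a log2 value of 0.35 ± 0.0554 (SE, adjusted p = 7.23e-07 in edgeR). That value rests on the Saengmaek-san and Guibi-tang libraries, as does the 43.7% of all genes tested that differed between the sides. Before the step the 28 extract libraries had 6.74 to 11.2 CPM with a median of 8.86, and the 29 after it had 8.52 to 15.3 with a median of 10.6. With a term for library order the log2 fold changes of KLF2 against vehicle ran from 0.42 to 0.73 over all 18 comparisons, and 0.71 for Soyo-san and 0.47 for Okbyeongpung-san at 500 µg/mL stood beside 1.07 and 0.82 without the term. In the libraries before the step alone, 10 comparisons with vehicle could be made, and KLF2 was higher in 10 of them, by 0.42 to 0.77.

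For the 9 members other than KLF2, the comparisons of the 6 replicated extracts at 500 µg/mL with vehicle passed at an adjusted p under 0.05 for 18 of 54 values, 13 up and 5 down, where 3.8% of all values tested passed (2.05% higher, 1.75% lower). At 100 µg/mL 11 of 54 passed (10 up, 1 down) where 1.14% of all values did (0.65% higher, 0.494% lower). At 20 µg/mL 7 of 54 passed, all up, where 1.04% of all values did (0.622% higher, 0.421% lower). The fit also holds KLF2, and with its values against vehicle put to the same threshold the counts were 24 of 60, 16 of 60 and 13 of 60. Those added calls are no evidence for KLF2, whose values were known when it was chosen. Between 500 and 20 µg/mL of the same extract 3 of 60 passed where 0.704% of all values did. Nothing is read from these shares, since the members were named with results known, and all 18 comparisons share the same 3 vehicle libraries. The counts with KLF2 depend on single vehicle libraries: leaving out vehicle replicate 1, 2 or 3 left 6, 7 and 8 at 100 µg/mL, vehicle replicate 2 left 8 at 20 µg/mL, and vehicle replicate 3 left 16 at 500 µg/mL. KLF3 and KLF9 passed in 0 of the 29 comparisons by edgeR and by DESeq2, with 2 and 6 values at an unadjusted p under 0.05.

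At 500 µg/mL the members other than KLF2 that passed for Menthae Herba were KLF6 and KLF11, up, and KLF4 and KLF16, down (6.77% of all genes passed). KLF6 alone passed, up, for Saposhnikoviae Radix (1.56%) and for Saengmaek-san (0.614%). For Guibi-tang (4.42%) KLF6, KLF10 and KLF11 were up and KLF4 was down. For Soyo-san (6.03%) KLF6, KLF10 and KLF11 were up and KLF4 and KLF13 were down. Okbyeongpung-san (3.39%) had KLF6, KLF10 and KLF11 up. Nothing is read from these shares either. The median log2 fold change of the 10 members lay between -0.09 and 0.09 in these 6 comparisons, and that of all genes was at most 0.0069 from 0 in any comparison. The family did not move as a block: KLF2 and KLF6 were up with all 6 extracts, KLF10 and KLF11 with some, and KLF4 was down with some.

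**Figure D2:**
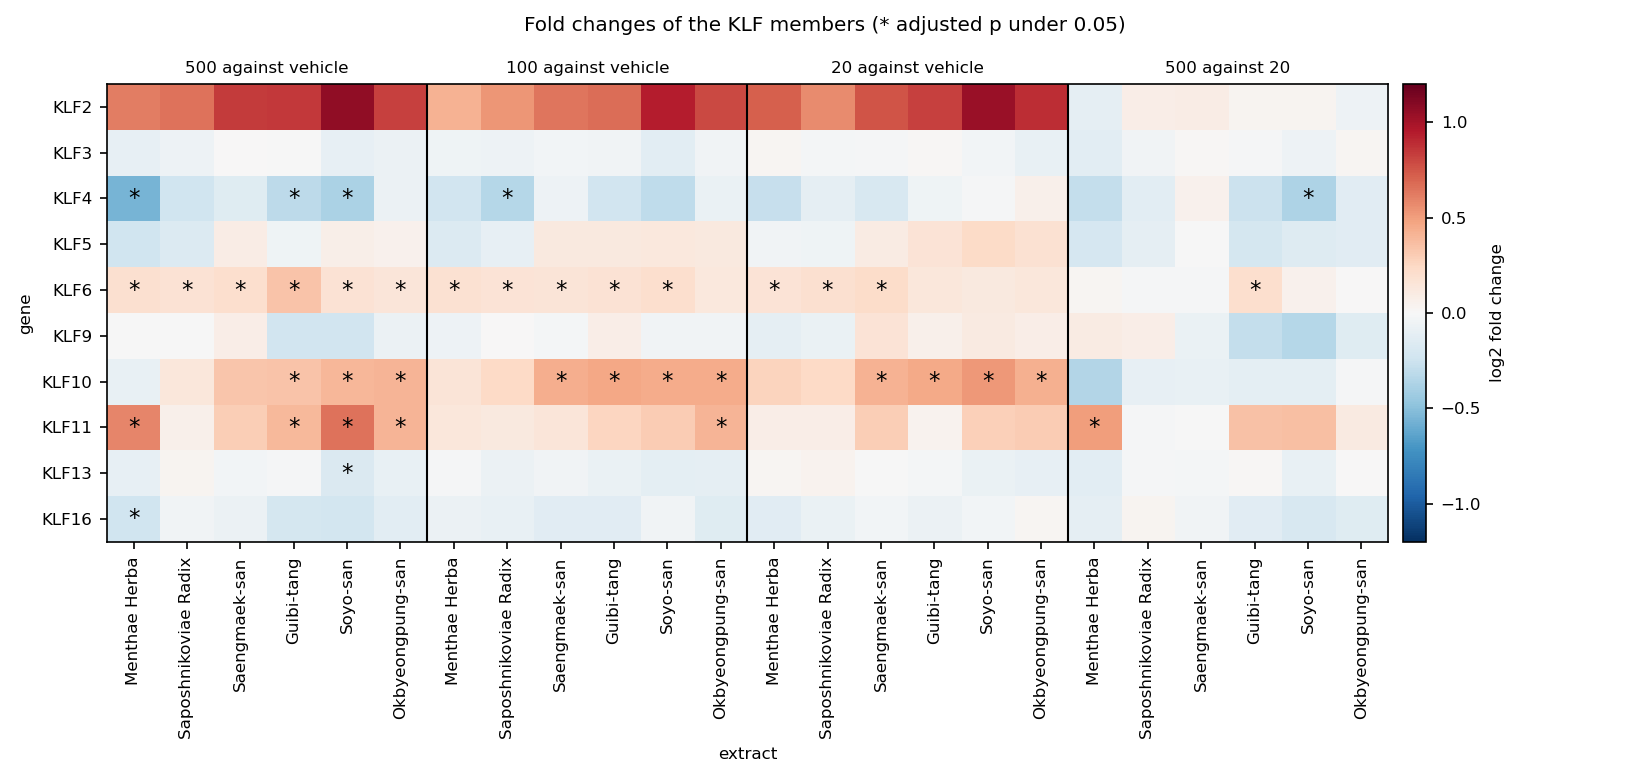
Log2 fold changes (colour) of the 10 members (rows) for 6 extracts (columns) in 4 blocks, 500, 100 and 20 µg/mL against vehicle and 500 against 20 µg/mL of the same extract. Stars mark an adjusted p under 0.05, with no star given to KLF2 against vehicle, whose values were known when it was chosen. KLF2 is positive in all 18 columns against vehicle, between 0.42 and 1.07, and between -0.10 and 0.09 in the block of 500 against 20.

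KLF6, an activator known as an early gene of tissue injury (ENSG00000067082, chromosome 10, 3775996 to 3785281, minus strand), showed a small rise in all 6 comparisons at 500 µg/mL. Its vehicle libraries had 54.1, 56.2 and 54.7 CPM. Those at 500 µg/mL had 70.9, 74.4 and 66.4 CPM with Guibi-tang, all above every vehicle library and the largest difference of this gene (70.6 ± 4.01 CPM against 55.0 ± 1.10, SD, n = 3; log2 fold change 0.34 ± 0.0389, adjusted p = 2.48e-08).
Menthae Herba gave 64.3, 65.0 and 65.1 CPM (0.20 ± 0.0390, adjusted p = 0.00065), and Saengmaek-san gave 66.0, 65.5 and 58.2 (0.20 ± 0.0388, adjusted p = 0.00391). Soyo-san gave 58.2, 60.5 and 62.5 CPM (0.17 ± 0.0389, adjusted p = 0.00382). These 3 groups also lay wholly above vehicle.
Saposhnikoviae Radix, with 64.5, 65.4 and 62.8 CPM (0.18 ± 0.0388, adjusted p = 0.00727), lost the call without vehicle replicate 1 (0.0543) or its own replicate 1 (0.0524). Okbyeongpung-san, with 60.4, 61.9 and 58.1 CPM (0.14 ± 0.0390, adjusted p = 0.0267), lost it without vehicle replicate 1 (0.133) or 3 (0.083) and without its own replicate 1 (0.089) or 2 (0.14). Both groups were above vehicle in 3 of 3 libraries.
With library totals in place of TMM scaling the calls for Saengmaek-san, Soyo-san and Okbyeongpung-san ended (adjusted p = 0.126, 0.187 and 0.294) at log2 values of 0.20, 0.14 and 0.13. With no filter on low counts the calls for Saposhnikoviae Radix, Saengmaek-san, Soyo-san and Okbyeongpung-san ended (0.159, 0.118, 0.112 and 0.312), and in a fit of its 2 groups alone that for Saengmaek-san did (0.407), with log2 values little changed. KLF6 rose in 5 of 6 comparisons at 100 µg/mL (0.13 to 0.20 over all 6) and in 3 of 6 at 20 µg/mL (0.12 to 0.22 over all 6), and each of these calls ended under at least 1 other setting.
With no filter all 5 calls at 100 µg/mL ended (adjusted p = 0.0624 to 0.457), as did all 3 at 20 µg/mL (0.0641 to 0.283). With library totals the 5 at 100 µg/mL ended (0.0631 to 0.539), as did those of Menthae Herba and Saengmaek-san at 20 µg/mL (0.18 and 0.126). In a fit of the 2 groups alone, Saengmaek-san at both doses and Guibi-tang at 100 µg/mL no longer passed.
Leaving out 1 library ended the call of Saposhnikoviae Radix at 100 µg/mL in 6 of 6 fits (0.0693 to 0.18), that of Saengmaek-san at 100 µg/mL in 5 of 6 (0.114 to 0.225) and that of Menthae Herba at 20 µg/mL in 5 of 6 (0.0809 to 0.33). At 100 µg/mL the Menthae Herba call ended without vehicle replicate 1 or its own replicate 3 (0.0702 and 0.0584), and the Guibi-tang call without vehicle replicate 1 or its own replicate 2 (0.0651 and 0.0911). The Saengmaek-san call at 100 µg/mL also ended with upper-quartile scaling (0.0526) and in libraries before the step alone (0.0988).
A dose difference was found for Guibi-tang, whose 20 µg/mL libraries had 60.5, 54.3 and 60.3 CPM (500 against 20 µg/mL 0.20 ± 0.0391, adjusted p = 0.00158), a call lost with no filter on low counts (0.0838) and in a fit of these 2 groups alone (0.392). The fitted difference of KLF6 across the step in library order did not pass (0.0018 ± 0.0238, adjusted p = 0.964), and with a term for it the values at 500 µg/mL stayed between 0.14 and 0.34. The 28 extract libraries before the step had 58.1 to 74.4 CPM with a median of 63.7, and the 29 after it had 54.3 to 72.4 with a median of 59.1. With Saengmaek-san at 500 µg/mL the 66.0 and 65.5 CPM were from libraries before the step and the 58.2 from 1 after it.

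KLF4, a factor of epithelial differentiation and cell cycle exit (ENSG00000136826, chromosome 9, 107484852 to 107490482, minus strand), was the member with most falls. Its vehicle libraries lay close together at 8.40, 8.47 and 8.30 CPM. Menthae Herba at 500 µg/mL gave 5.84, 5.32 and 6.46 CPM (5.87 ± 0.572 against 8.39 ± 0.0823, SD, n = 3; log2 fold change -0.56 ± 0.0908, adjusted p = 3.02e-05), with no overlap.
Soyo-san at 500 µg/mL gave 5.69, 7.08 and 6.08 CPM (-0.38 ± 0.0888, adjusted p = 0.00505), and Guibi-tang gave 6.62, 6.78 and 7.15 (-0.32 ± 0.0893, adjusted p = 0.0289). Both groups lay wholly below vehicle. With the term for library order the Soyo-san value was -0.42 (adjusted p = 0.00512). Soyo-san at 100 µg/mL did not pass without the term (-0.30, adjusted p = 0.0671) and passed with it (-0.34, adjusted p = 0.0369). The Guibi-tang call was lost without any 1 of vehicle replicates 1 to 3 (0.0713, 0.102 and 0.0721) or of its own replicates 1 and 2 (0.125 and 0.159), with library totals (0.0958), with no filter on low counts (0.121) and in a fit of the 2 groups alone (0.128).
Saposhnikoviae Radix, Saengmaek-san and Okbyeongpung-san at 500 µg/mL had log2 values of -0.24, -0.14 and -0.07 that did not pass. At 100 µg/mL Saposhnikoviae Radix passed (-0.34 ± 0.0874, adjusted p = 0.0464) and lost the call without any 1 of its 3 libraries or of the 3 vehicle libraries (0.0824 to 0.216), with DESeq2 (0.0539), with no filter (0.13) and with library totals (0.166). At 20 µg/mL 0 of 6 passed with edgeR or DESeq2, and 2 had an unadjusted p under 0.05.
KLF4 was lower at 500 than at 20 µg/mL of Soyo-san, where the 20 µg/mL libraries had 8.48, 7.52 and 8.19 CPM (-0.37 ± 0.0915, adjusted p = 0.0407). That call was lost without Soyo-san 500 µg/mL replicate 1 (0.239) or 3 (0.218), without Soyo-san 20 µg/mL replicate 1, 2 or 3 (0.269, 0.0639 and 0.116), with DESeq2 (0.0733), with no filter (0.146), with library totals (0.127) and in a fit of the 2 groups alone (0.316). Of the 57 extract libraries, 50 lay below all 3 vehicle libraries and 3 above, counted against that narrow range.

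KLF11, a Sin3A-binding repressor (ENSG00000172059, chromosome 2, 10042849 to 10054836, plus strand), was higher with 4 of 6 extracts at 500 µg/mL. Vehicle libraries had 5.96, 5.13 and 5.19 CPM. Menthae Herba gave 8.55, 8.96 and 7.49 CPM (8.33 ± 0.758 against 5.42 ± 0.461, SD, n = 3; log2 fold change 0.58 ± 0.108, adjusted p = 0.000238), and Soyo-san gave 8.47, 7.89 and 8.46 (0.65 ± 0.107, adjusted p = 7.11e-05). Neither group overlapped vehicle.
Guibi-tang gave 5.64, 8.12 and 7.76 CPM (0.39 ± 0.11, adjusted p = 0.0288), its first library lying inside the vehicle range. That call was lost without vehicle replicate 2 (0.145) or 3 (0.104) and without Guibi-tang replicate 2 (0.195) or 3 (0.184), with no filter (0.052), in a fit of the 2 groups alone (0.222) and in libraries before the step alone (0.104). Okbyeongpung-san gave 6.16, 7.56 and 7.61 CPM (0.41 ± 0.109, adjusted p = 0.0239), lost without vehicle replicate 2 (0.13) or 3 (0.0966), without its own replicate 2 (0.121) or 3 (0.154), and with the term for library order (0.20, adjusted p = 0.288). Okbyeongpung-san also passed at 100 µg/mL (0.40, adjusted p = 0.0497), and lost that call without any 1 of the 6 libraries compared (0.0622 to 0.199), in a fit of the 2 groups alone (0.0589), with library totals (0.0923) and with the term for library order (0.367). At 20 µg/mL 0 of 6 comparisons passed with edgeR or DESeq2, and 3 had an unadjusted p under 0.05.
Saposhnikoviae Radix at 500 µg/mL gave 5.73, 5.89 and 5.91 CPM (0.06), all inside the vehicle range. KLF11 was higher with Menthae Herba than with Saposhnikoviae Radix at 500 µg/mL (0.52 ± 0.11, adjusted p = 0.00392), where 1.47% of genes passed in that comparison. Without Menthae Herba replicate 2 the adjusted p was 0.0598.
KLF11 was also higher at 500 than at 20 µg/mL of Menthae Herba, whose 20 µg/mL libraries had 5.27, 6.33 and 5.88 CPM (0.51 ± 0.11, adjusted p = 0.00313). The adjusted p was 0.0553 without Menthae Herba 20 µg/mL replicate 1 and 0.0506 without Menthae Herba 500 µg/mL replicate 2. The same dose difference did not pass for Guibi-tang (0.35, adjusted p = 0.157) or Soyo-san (0.36, adjusted p = 0.16). Both passed with the term for library order (0.42, adjusted p = 0.0214, and 0.36, adjusted p = 0.0491). The dose change of Menthae Herba minus that of Saposhnikoviae Radix was 0.52 ± 0.158 in a test of the interaction, with an unadjusted p of 0.00191 in edgeR that did not pass adjustment (0.273).
KLF11 was higher after the step in library order as well, by 0.21 ± 0.0631 (adjusted p = 0.00495). The 28 extract libraries before it had 4.85 to 8.96 CPM with a median of 5.93, and the 29 after it had 5.31 to 9.38 with a median of 6.76. With the term for library order Soyo-san at 500 µg/mL had 0.43 (adjusted p = 0.00814) in place of 0.65.

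KLF10, the other member of the transforming growth factor beta-inducible pair (ENSG00000155090, chromosome 8, 102648779 to 102655902, minus strand), was above all vehicle libraries in 54 of 57 extract libraries. Vehicle libraries had 90.9, 88.1 and 87.5 CPM. Soyo-san at 500 µg/mL gave 118, 118 and 107 CPM (0.40 ± 0.10, adjusted p = 0.00959), Okbyeongpung-san gave 111, 123 and 117 (0.41 ± 0.10, adjusted p = 0.012), and Guibi-tang gave 108, 112 and 121 (0.34 ± 0.101, adjusted p = 0.041). The Soyo-san call was lost without its replicate 1 (0.0725). The Okbyeongpung-san call was lost without vehicle replicate 2 or 3 (0.053 and 0.0524) or its own replicate 2 or 3 (0.0658 and 0.0519). That of Guibi-tang was lost without any 1 vehicle library (0.0892 to 0.124) and without its replicate 2 or 3 (0.055 and 0.239).
Menthae Herba at 500 µg/mL was the exception, with 86.2, 84.6 and 87.5 CPM (-0.09, adjusted p = 0.71), near or below vehicle. Its 20 µg/mL libraries had 105, 112 and 109 CPM, with no overlap, and the difference between 500 and 20 µg/mL narrowly missed the threshold (-0.35 ± 0.102, adjusted p = 0.0509 in edgeR), while it passed under each of the 8 other settings tried.
Those adjusted p-values were 0.0268 with DESeq2, 0.0411 with upper-quartile scaling, 4.58e-07 with no filter, 4.37e-06 in a fit of the 2 groups alone, 0.00258 with library totals, 0.0485 with a replicate block, 6.26e-05 with the term for library order and 2.24e-08 in libraries before the step. The log2 value lay between -0.35 and -0.33 under all 8. All 6 extracts had lower KLF10 at 500 than at 20 µg/mL in the fit, from -0.35 to -0.01, and 0 of 6 passed with edgeR (1 of 6 unadjusted and 1 of 6 with DESeq2). With library totals the value of Okbyeongpung-san turned to 0.02.
KLF10 moved with library order as well: it was higher after the step by 0.33 ± 0.0359 (adjusted p = 2.86e-10), with 84.6 to 115 CPM in the 28 extract libraries before it and 107 to 135 in the 29 after it. With a term for library order Soyo-san and Okbyeongpung-san at 500 µg/mL had 0.08 and 0.09 (adjusted p = 0.539 and 0.469), and their calls at 100 and 20 µg/mL ended too. Guibi-tang at 500 µg/mL had 0.23 (adjusted p = 0.00901) with the term. Saengmaek-san at 500 µg/mL did not pass without the term (0.33, adjusted p = 0.127) and passed with it (0.22, adjusted p = 0.0333). Over all doses 9 of 18 comparisons with vehicle passed with the term. In libraries before the step alone, KLF10 was higher than vehicle in 9 of 10 comparisons, by 0.14 to 0.31, and each of those 9 passed.

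**Figure D3:**
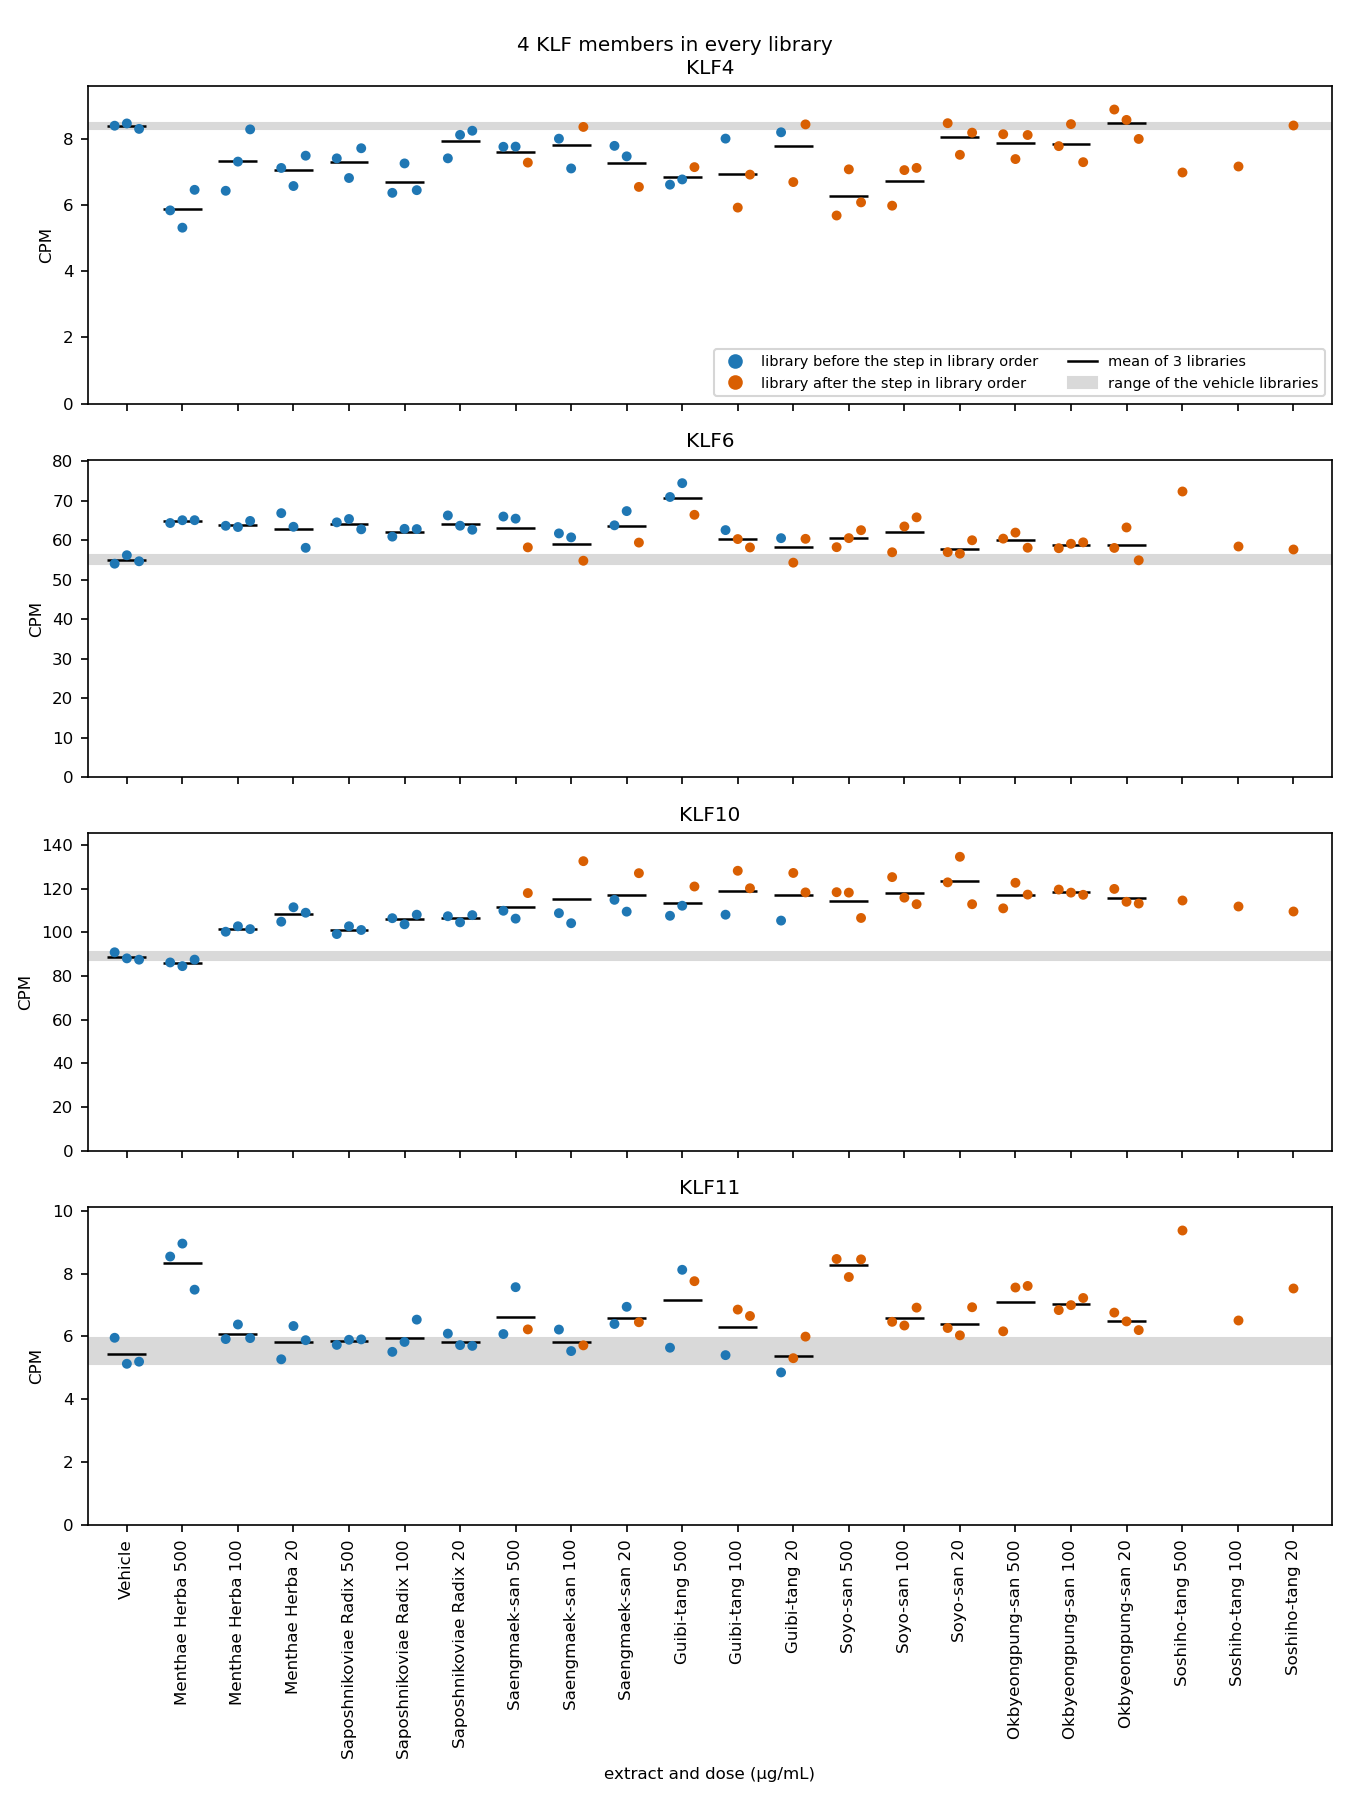
Levels of KLF4, KLF6, KLF10 and KLF11 in CPM (vertical axes) in each of the 60 libraries by extract and dose in µg/mL, coloured by side of the step in library order, with black lines at the mean of 3 libraries and a grey band over the vehicle range. KLF4 lies below its narrow vehicle band in 50 of 57 extract libraries, and KLF6 and KLF10 each lie above theirs in 54 of 57. The shares of all genes with such counts are not given.

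KLF5 (ENSG00000102554, chromosome 13, 73054976 to 73077542, plus strand) passed in 0 of 18 comparisons with vehicle by edgeR or DESeq2, and 2 had an unadjusted p under 0.05. Its vehicle libraries had 92.2, 88.1 and 90.7 CPM, and Menthae Herba at 500 µg/mL gave 77.3, 80.4 and 78.4 (-0.24 ± 0.0945, adjusted p = 0.126), with no overlap. Within libraries before the step this difference was -0.24 with an adjusted p of 2.26e-05, and with the term for library order it was -0.24 with 0.0122. KLF5 fell in 4 of 10 comparisons within libraries before the step. The others were Saposhnikoviae Radix (-0.16, adjusted p = 0.00327) and Guibi-tang (-0.13, 0.0278) at 500 µg/mL and Menthae Herba at 100 µg/mL (-0.16, 0.0052).
KLF5 was higher after the step (0.26 ± 0.0409, adjusted p = 5.98e-07). Its fitted value with Soyo-san at 500 µg/mL was 0.07 and turned to -0.19 with the term for library order, and with Okbyeongpung-san 0.05 turned to -0.22.

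The repressors KLF13 and KLF16 each passed in 1 comparison, at 500 µg/mL, in the fit without a term for library order. KLF13 (ENSG00000169926, chromosome 15, 31326855 to 31435665, plus strand), known from lymphocytes as a regulator of the chemokine gene CCL5, had 111, 107 and 111 CPM in vehicle and 89.2, 96.9 and 98.4 with Soyo-san (-0.17 ± 0.0431, adjusted p = 0.00925). That call ended without vehicle replicate 3 (0.0541), without Soyo-san replicate 1 (0.0597), with library totals (0.071) and with the term for library order (-0.10, adjusted p = 0.132). In libraries before the step alone KLF13 passed with Menthae Herba at 500 µg/mL instead (-0.10, adjusted p = 0.0263).
KLF16 (ENSG00000129911, chromosome 19, 1852399 to 1863568, minus strand) had 29.5, 30.2 and 30.5 CPM in vehicle and 26.2, 26.6 and 25.5 with Menthae Herba (-0.24 ± 0.0737, adjusted p = 0.0335). That call ended without any 1 of the 6 libraries (0.0575 to 0.136) and with library totals (0.174). With the term for library order KLF16 passed at 500 µg/mL with Menthae Herba (-0.24, adjusted p = 0.0186), Guibi-tang (-0.22, 0.0494) and Soyo-san (-0.25, 0.0489). Guibi-tang also passed in libraries before the step alone (0.0158), and Soyo-san with no filter (0.0302), in a fit of the 2 groups alone (0.0272) and with a replicate block (0.0426). Its fold change at 500 µg/mL was below 0 with all 6 extracts, from -0.24 to -0.04, except that with library totals Saposhnikoviae Radix turned to 0.0064.

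KLF3 (ENSG00000109787, chromosome 4, 38664196 to 38701042, plus strand) was the steadiest member, between 36.1 and 48.5 CPM over all 60 libraries. Its log2 fold changes at 500 µg/mL ran from -0.10 to 0.00059. KLF9 (ENSG00000119138, chromosome 9, 70384597 to 70414624, minus strand), a glucocorticoid- and thyroid hormone-induced factor, had 7.13, 7.00 and 5.89 CPM in vehicle and 4.84 to 7.51 CPM over all libraries. Its lowest value at 500 µg/mL was -0.23, for Guibi-tang and Soyo-san alike, and the lowest adjusted p against vehicle at that dose was 0.124.

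The 5 comparisons between extracts at 500 µg/mL set a decoction against a single herb or another decoction, or the 2 herbs against each other, and 4 of 50 member values passed where 1.94% of all values did. Of these, 3 came from Soyo-san against Menthae Herba, where 6.14% of genes passed: KLF2 at 0.45 ± 0.124 (adjusted p = 0.022), KLF5 at 0.31 ± 0.0951 (adjusted p = 0.0399) and KLF10 at 0.49 ± 0.102 (adjusted p = 0.00192). Soyo-san lies wholly after the step and Menthae Herba wholly before it, and with the term for library order the 3 values were 0.10, 0.05 and 0.16 (adjusted p = 0.755, 0.866 and 0.245). Leaving out Menthae Herba replicate 1 or 3 or Soyo-san replicate 1 or 3 also ended the KLF2 call (0.0584 to 0.0986), and the KLF5 call ended without any 1 Menthae Herba library or without Soyo-san replicate 1 or 3 (0.0618 to 0.239). The fourth was KLF11 in Menthae Herba against Saposhnikoviae Radix, given above, 2 groups that both lie before the step. Tests of whether the dose change differed between extracts passed for 0 of 50 member values where 0.173% of all values passed (5 of 50 at an unadjusted p under 0.05, not run in DESeq2), the lowest adjusted p being 0.0674 for KLF6 in Saengmaek-san against Guibi-tang (-0.22 ± 0.0553).

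**Figure D4:**
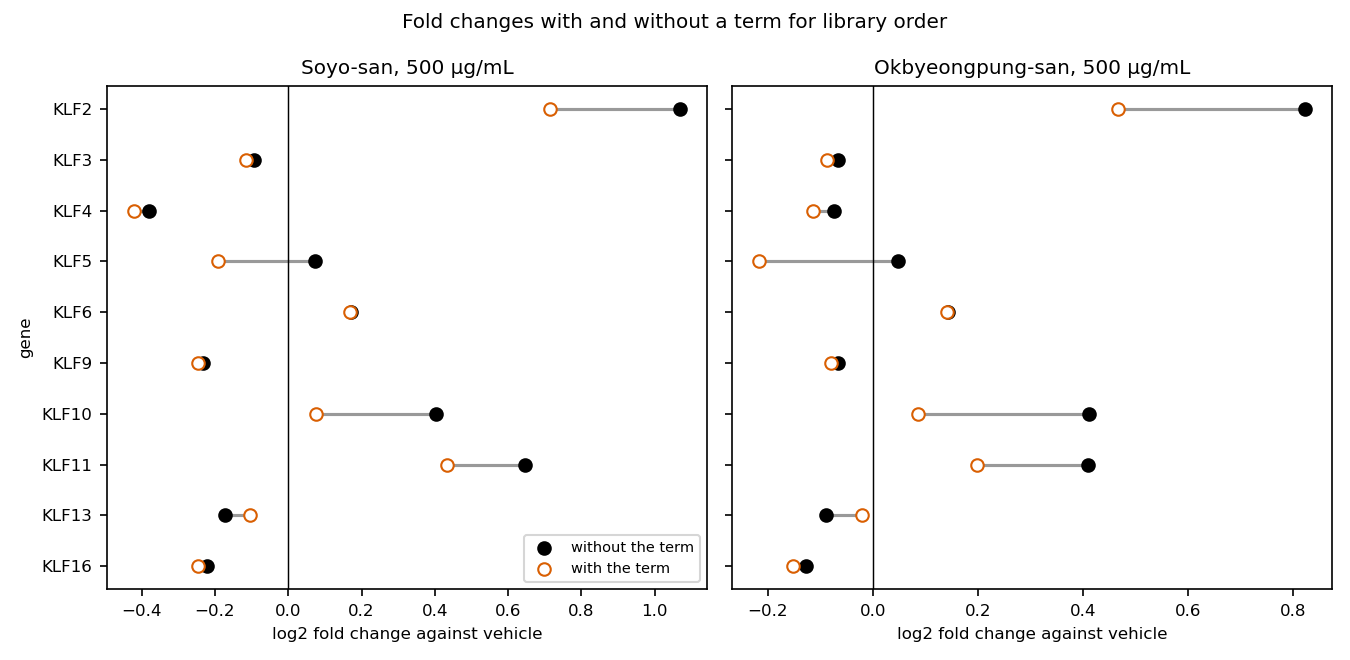
Log2 fold change against vehicle (horizontal axis) of the 10 members (rows) for Soyo-san and Okbyeongpung-san at 500 µg/mL, with filled points for the fit without and open points for the fit with a term for library order. KLF2 moves from 1.07 to 0.71 with Soyo-san, KLF10 from 0.40 to 0.08, and KLF6 stays at 0.17.

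Soshiho-tang had 1 library at each dose, all after the step, and no test could be made. Its 500 µg/mL library was the highest of all 60 for KLF2 (15.3 CPM from 353 counts, exact 95% binomial interval 13.8 to 17.0), KLF5 (109 CPM) and KLF11 (9.38 CPM, interval 8.17 to 10.7). For KLF6 it had 72.4 CPM, with 1 library higher. The intervals cover counting error only. At 100 and 20 µg/mL KLF2 had 10.5 and 10.1 CPM. KLF11 had 6.51 CPM at 100 and 7.53 at 20 µg/mL, so that its middle dose was lowest. KLF4 had 6.99 CPM at 500, 7.20 at 100 and 8.43 at 20 µg/mL.

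Across the 60 libraries, after removing the mean on each side of the step, KLF2 and KLF6 varied together (Pearson r = 0.592 of log2 CPM), as did KLF3 and KLF5 (0.65) and KLF5 and KLF10 (0.604). KLF4 ran opposite to KLF11 (-0.576) and to KLF6 (-0.423). These libraries share groups, doses and depth, so the coefficients are descriptions over 60 libraries, with no p. Among 10931 other genes with a mean of at least 5 CPM, KLF2 was most like RHOB (r = 0.724), a small GTPase gene, CEBPB (0.683), a transcription factor gene, and GARRE1 (0.601). KLF4 was most like ID2 (0.711), ATOH8 (0.685) and ID4 (0.668), genes of the helix-loop-helix family. KLF6 was most like TRIM25 (0.67), GARRE1 (0.668) and LIF (0.641). KLF10 was most like PLEKHG2 (0.801), BHLHE40 (0.79) and TNS4 (0.776), and KLF11 was most like CYP1B1 (0.668), STAT4 (0.664) and TIPARP (0.664), of which CYP1B1 and TIPARP are known targets of the aryl hydrocarbon receptor. KLF5 was most like TOB1 (0.826), HIF1A (0.815) and OSBPL9 (0.799). The highest r was 0.716 (PDK4) for KLF13, 0.701 (MTUS1) for KLF3, 0.645 (EIF5A) for KLF16 and 0.478 (PIK3R3) for KLF9.

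**Figure D5:**
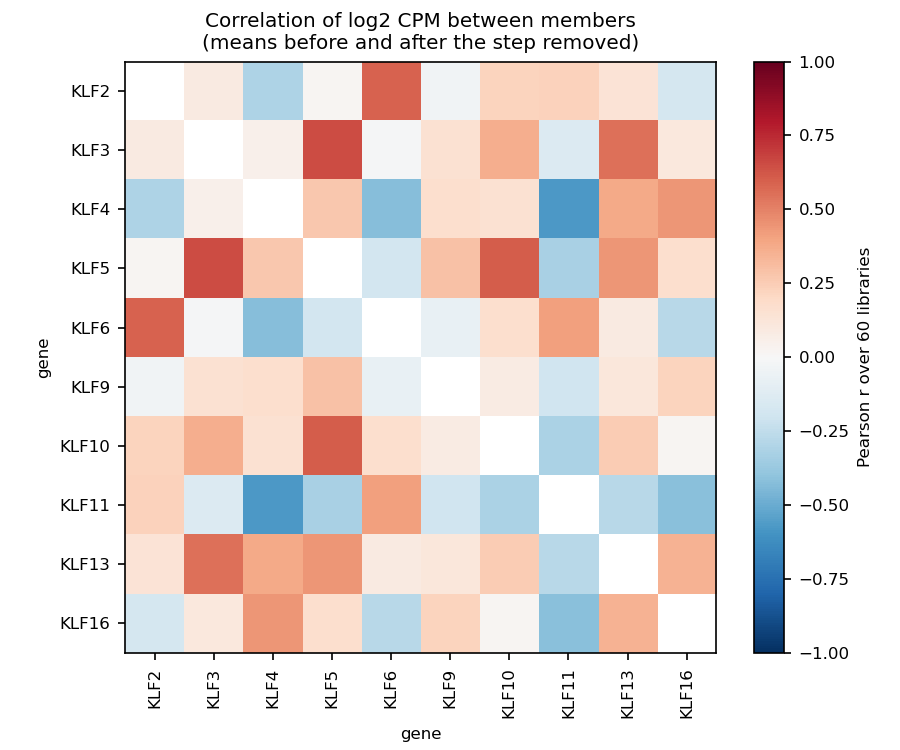
Pearson correlation (colour) of log2 CPM between each pair of the 10 members over 60 libraries, after removing the mean on each side of the step in library order. The highest value is 0.65 for KLF3 and KLF5 and the lowest is -0.576 for KLF4 and KLF11.

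Of 17 other KLF and SP family genes, 8 passed the filter on low counts. At 500 µg/mL against vehicle they gave 5 rises and 1 fall in 48 values, where 2.05% of all values tested were called higher and 1.75% lower, a background that holds for every list here and from which nothing is read, with list medians between -0.02 and 0.01. KLF7, an activator related to KLF6, rose with Menthae Herba (0.16), Guibi-tang (0.18), Soyo-san (0.35) and Okbyeongpung-san (0.26), KLF12 rose with Okbyeongpung-san (0.24), and SP2 fell with Menthae Herba (-0.45). At 500 against 20 µg/mL 0 of 48 values passed with edgeR or DESeq2, where 0.704% of all values did, and 4 had an unadjusted p under 0.05.
Among 18 corepressors, coactivators and ubiquitin ligases of KLF proteins, 0 of 108 values rose and 6 fell with edgeR (4 higher at an unadjusted p under 0.05, 0 higher with DESeq2). SMURF1, a ubiquitin ligase, gave 5 of these falls (-0.22 to -0.13), and CTBP1, the corepressor that KLF3 binds, fell with Guibi-tang (-0.17). In the MEKK3, ERK5 and MEF2 route with the CCM complex, 1 of 78 values rose (MAP3K3, which encodes MEKK3, 0.16) and 1 fell (MEF2D, -0.24), both with Menthae Herba.
Of 12 transforming growth factor beta and SMAD response genes, 13 of 72 values rose and 5 fell, with BHLHE40 up in 4 extracts (0.32 to 0.45). The receptor NR3C1 and its induced genes gave 0 rises and 5 falls in 54 values (7 higher at an unadjusted p under 0.05, 0 higher with DESeq2), among them DUSP1 with Soyo-san (-0.34) and Okbyeongpung-san (-0.35). Immediate early genes gave 4 rises and 15 falls in 78 values, the largest being NR4A1 (-1.35) and NR4A3 (-1.08) with Menthae Herba. The falls came mostly from NR4A1, NR4A3 and BTG2, and the rises came from other genes, so the list did not move as a whole.
Of 8 tested genes reported as KLF targets, 6 of 48 values rose and 8 fell. ENG, which encodes endoglin, rose with Menthae Herba (1.15 ± 0.363, SE) and Saposhnikoviae Radix (1.298 ± 0.35) at a low level, 0.142 to 0.721 CPM over all libraries. The cyclin gene CCND1 fell with all 6 extracts (-0.28 to -0.15), and THBD, which encodes thrombomodulin, rose with Guibi-tang (0.25), Okbyeongpung-san (0.21) and Soyo-san (0.17) and fell with Menthae Herba (-0.20). The medians of these 7 lists at 500 µg/mL against vehicle lay between -0.19 and 0.08.
With the term for library order, 5 genes named above with both Soyo-san and Okbyeongpung-san at 500 µg/mL still passed with both: KLF7 (0.34 and 0.25), BHLHE40 (0.15 and 0.19), DUSP1 (-0.19 and -0.20), THBD (0.25 and 0.30) and CCND1 (-0.19 and -0.10). KLF12 with Okbyeongpung-san (0.22, adjusted p = 0.0581) and SMURF1 with Soyo-san and Okbyeongpung-san (-0.09 and -0.11, adjusted p = 0.182 and 0.0871) no longer passed. With the term, immediate early genes had 1 rise and 26 falls, the glucocorticoid receptor list 1 and 10, the corepressor list 2 and 10, and the MEKK3 route 1 and 6. Other KLF and SP genes had 5 rises and 5 falls, transforming growth factor beta response genes 16 and 7, and reported targets 8 and 7. The shares of all values given above are from the fit without the term. None is given for the fit with it, so nothing is read from these counts or their change.
These lists were chosen with earlier results of the same libraries known, and their counts are descriptions.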

How the data were processed

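RNA of A549 cells was sequenced as directional paired-end libraries, per the labels' protocols. The submitters' processing notes name FastQC 0.11.9, Trim Galore 0.6.5, STAR 2.7.3a and RSEM 1.3.3 on hg38, and the annotation release and strand setting are not given in the sources used here. The authors deposited RSEM expected counts per gene, of which 10.5% were not whole numbers, and these were rounded. Symbols came from a current gene table for 56558 of 60675 identifiers and from GENCODE 29 for 497, and 3620 had none. CPM divides a count by the library total, with no scaling factor.

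The 57 libraries of the 19 groups of 3 were fitted together with edgeR 4.0.16 in R 4.3.3 (TMM scaling, filterByExpr, quasi-likelihood tests), with Benjamini-Hochberg adjustment over the 17256 genes tested in each of 29 comparisons and a threshold of 0.05. An adjusted p is from that test unless another tool is named. Intervals of fold changes are normal 95% intervals. The code was run on simulated counts that held no step in library order, so that run gives no error rate for these data. Alternatives were DESeq2 1.42.0, upper-quartile scaling, no filter, the 2 groups alone, a replicate block, a term for library order, libraries before the step, each library left out, and library totals, chosen after seeing the data. The members and related lists were chosen with earlier results of these data known. All members were followed, and up to 3 passing genes of a related list could be named per comparison. Likeness was Pearson's r of log2 CPM with a prior count of 2.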

Additional observations from a re-analysis of the deposited data

How the results depend on the processing

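Of 60 member calls, 17 of them KLF2 against vehicle, under up to 8 other settings, 383 of 450 values kept their direction and their side of the threshold, 67 no longer passed and 0 reversed. Those that no longer passed came from no filter (17), the 2 groups alone (17), library totals (16), the term for library order (12), DESeq2 (2), libraries before the step (2) and upper-quartile scaling (1). Leaving out 1 library kept 231 of 360 values, and 129 no longer passed. A member call is 1 member passing in 1 comparison, so their number can exceed that of the members. Over these fits it ranged from 16 to 25 at 500 µg/mL against vehicle, 6 to 17 at 100 and 8 to 13 at 20. It was 2 to 4 at 500 against 20 µg/mL and 2 to 4 between extracts. The 2 between extracts arose without Menthae Herba replicate 1, 2 or 3 or Soyo-san replicate 1 or 3. The count of member calls at 100 µg/mL was 10 with library totals against 16. At 500 against 20 µg/mL it was 7 with the term for library order against 3, and in the 3 comparisons that libraries before the step allow it was 4 against 1. Between extracts it was 7 with no filter and 11 with the 2 groups alone against 4, and in the 2 comparisons before the step 5 against 1. The shares of all genes called under these other settings are not given here. Nothing particular to the KLF members is therefore read from these counts, and the cause of their differences was not tested.

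Over 513 pairs with the same replicate number the median correlation of deviations was 0.00203, against -0.00154 for pairs with different numbers. With 3 numbers to choose from, 26 of 57 libraries correlated best with their own number. In the Saengmaek-san and Guibi-tang groups every replicate 1 lies before the step and every replicate 3 after it. Number and step therefore cannot be fully told apart there. With a replicate block 0 of 60 calls were lost, and KLF16 with Soyo-san at 500 µg/mL (adjusted p = 0.0426) and KLF10 at 500 against 20 µg/mL of Menthae Herba (0.0485) were gained in edgeR. A prior count of 0.5 moved a member's log2 CPM by at most 0.0178 (KLF11). Counts of 104 to 353 per library limit KLF2, KLF4, KLF9 and KLF11.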
